A study of Mus musculus with 3 samples.

Results

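The *Dlx* genes of the mouse, which encode the distal-less homeodomain transcription factors, were followed across the sorted cell populations of this array study. A probe was taken as a member when the transcript accession it carries is a RefSeq transcript of *Dlx1*, *Dlx2*, *Dlx3*, *Dlx4*, *Dlx5* or *Dlx6*. This gave 6 probes of 55681 mouse probes, 1 for each of the 6 genes, among 20145 genes that could be named in the same way. RNA was measured on 3 single-colour Agilent mouse arrays, 1 per population and all on 1 slide. MGE-GFP+ cells were sorted for green fluorescence straight from the medial ganglionic eminence (MGE), an embryonic swelling of the ventral forebrain, of female E12.5 embryos on a CD1 background. ES-GFP+ and ES-GFP- cells, labelled ES Lhx6-GFP+ and Lhx6-GFP-, came as the fluorescent and the non-fluorescent fraction of aggregates of the male 129S4/SvJae embryonic stem (ES) cell line J14, sorted after 12 days of differentiation toward MGE. The aggregates were made in 100 ng/ml Dkk-1, an inhibitor of Wnt signaling, received 6 nM SAG, an agonist of the hedgehog pathway, from day 3, were moved to new medium with SAG on day 6, and were dissociated in the presence of the Rock inhibitor Y-27632. All 3 populations carried a BAC transgene that expresses GFP under control of *Lhx6*, and the labels give the ES cells a further viral reporter in which enhancer 692 drives mCherry. The ES cells were 1 line, aggregates were pooled before sorting, and the GFP+ gate takes cells by activity of an *Lhx6* transgene, so the GFP- fraction still holds any cell that uses *Dlx* genes without *Lhx6*. Strain, sex and growth in culture differ between the MGE and ES populations and cannot be told apart from the source of the cells. With 1 array per population there was no test and no p-value, and precision is limited by that number.

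Dlx proteins bind AT-rich DNA through their homeodomain and act in the ventral forebrain, the branchial arches, the limb and the surface ectoderm. The genes sit in convergent pairs, *Dlx1* beside *Dlx2*, *Dlx5* beside *Dlx6* and *Dlx3* beside *Dlx4*, and each pair has a member of either paralogue group, with *Dlx2*, *Dlx3* and *Dlx5* in the first and *Dlx1*, *Dlx4* and *Dlx6* in the other. In the ganglionic eminences *Dlx1* and *Dlx2* come on in progenitors, *Dlx5* and *Dlx6* follow as cells leave the cycle, and together they are needed for the GABAergic fate and for the migration of interneurons to the cortex. *Dlx3* and *Dlx4* are genes of ectoderm, arches and placenta and have no main role in the forebrain.

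The values are spot intensities in arbitrary units after subtraction of background by the scanner software. For comparisons they were put on the log2 scale and each array's 75th percentile over mouse probes was taken off. This percentile was an intensity of 843 for ES-GFP-, 747 for ES-GFP+ and 576 for MGE-GFP+ cells, so raw intensities of a probe on different arrays are not on the same scale. The software called 80.3%, 90.6% and 77.1% of the mouse probes well above background on these arrays, in that order. As a harder limit, 106 control probes for adenovirus and synthetic spike-in sequences, which match no mouse gene, were used, and their 95th percentile was an intensity of 208, 377 and 152. Of these control probes 34, 86 and 34 were called well above background, so on the ES-GFP+ array that call was given to most probes without a target. Repeat spots of the same probe had an SD of 0.142, 0.140 and 0.144 on the log2 scale, from which 2 SDs of a difference between arrays came to 0.40, 0.41 and 0.40 for the comparisons of ES-GFP+ with ES-GFP- cells, MGE-GFP+ with ES-GFP- cells and MGE-GFP+ with ES-GFP+ cells. Differences among cultures, embryos, sorts and labelings are not in this spread, which is the only error that 1 array per population allows.

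The forebrain members were bright on every array. The *Dlx1* probe (NM_010053) had an intensity of 5637 in ES-GFP- cells, 17503 in ES-GFP+ cells and 19724 in MGE-GFP+ cells. The *Dlx2* probe (NM_010054) had 1137, 2658 and 6124 in the same order. Both genes act at the top of the *Dlx* cascade, and both probes were lowest in the ES-GFP- cells and highest in the MGE-GFP+ cells. The *Dlx5* probe (NM_010056) had intensities of 1108, 2100 and 4471. The *Dlx6* probe (NM_010057) had 1665, 5191 and 4764. These later-acting genes were likewise lowest in ES-GFP- cells, and *Dlx6* alone among the 4 had a raw intensity that was higher in ES-GFP+ than in MGE-GFP+ cells, an order that turned after scaling (normalized log2 values of 2.80 and 3.05). All 4 probes exceeded the 95th percentile of the control probes on all 3 arrays, the ES-GFP- array included.

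**Figure D1:**
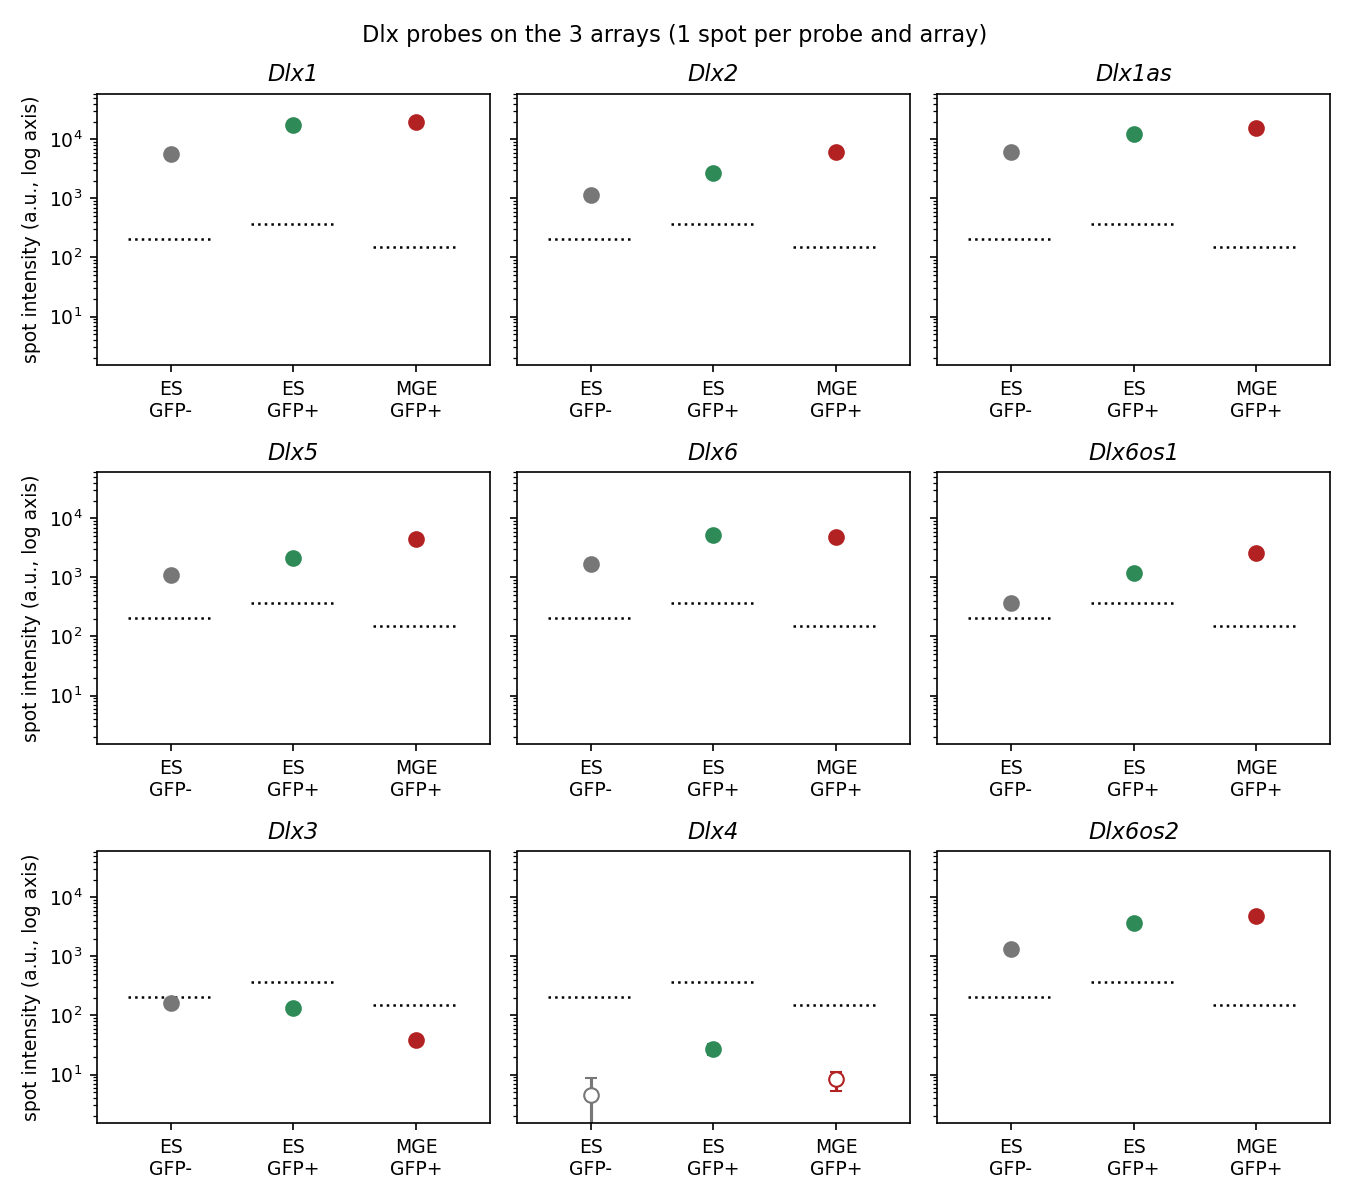
Spot intensity (arbitrary units, log axis, not scaled between arrays) of the 6 *Dlx* probes and of 3 noncoding transcripts of the *Dlx* loci on the ES-GFP- (gray), ES-GFP+ (green) and MGE-GFP+ (red) arrays, with 1 spot per point, an open circle where the spot was not well above background, bars for the spot error given by the scanner software (smaller than most points) and a dotted line at the 95th percentile of 106 control probes on that array. *Dlx1*, *Dlx2*, *Dlx5*, *Dlx6* and the noncoding transcripts lie above the dotted line on all 3 arrays, while *Dlx3* and *Dlx4* lie below it on all 3.

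*Dlx3* and *Dlx4*, the pair with no main forebrain role, did not exceed the control probes in any population. The *Dlx3* probe (NM_010055) had intensities of 161 in ES-GFP- cells, 136 in ES-GFP+ cells and 38.7 in MGE-GFP+ cells, each called well above background but each below the 95th percentile of the control probes. The *Dlx4* probe (NM_007867) had 4.57, 27.4 and 8.24, and the software called it well above background in the ES-GFP+ cells alone, on the array where 86 of the 106 control probes were also called. *Dlx3* was 2.85-fold lower in MGE-GFP+ than in ES-GFP- cells and 2.72-fold lower than in ES-GFP+ cells. The ES populations differed by a log2 value of -0.07, within 2 SDs of repeat spots. That value was beyond 2 SDs under the 50th percentile (-0.51), quantile normalization (-0.77) and in the deposited values (-0.58). These are differences among intensities that probes without a target also reach. For *Dlx4*, a probe without the call was set no lower than the lowest intensity with the call on that array, which makes the fold a bound, and the probe was at least 1.74-fold higher in ES-GFP+ than in ES-GFP- cells and at least 1.75-fold lower in MGE-GFP+ than in ES-GFP+ cells. In the deposited values these bounds shrank to log2 values of 0.02 and -0.05. No fold was taken between MGE-GFP+ and ES-GFP- cells, where neither array had the call.

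Between the ES populations, all 4 forebrain members were higher in the GFP+ cells. *Dlx6* was 3.52-fold and *Dlx1* 3.51-fold higher in ES-GFP+ than in ES-GFP- cells (log2 differences of 1.82 and 1.81). *Dlx2* was 2.64-fold higher (1.40) and *Dlx5* 2.14-fold higher (1.10). Each of these differences was larger than 2 SDs of repeat spots, which came to 1.32-fold. At least 2-fold higher were therefore 4 of 6 members and at least 2-fold lower 0, where over all probes that could be compared 27.3% were at least 2-fold higher and 5.00% at least 2-fold lower. The median over the 6 members, with the bound of *Dlx4* among them, was 1.25 and over all probes 0.34. Under the 50th percentile these medians were 0.81 and -0.10. Over the 4 members above the control probes the median was 1.61. The background was smaller among bright probes. Among the 19929 probes that exceeded the control probes on both arrays, 6.19% were at least 2-fold higher, 4.42% at least 2-fold lower, and the median difference was 0.04. The 4 forebrain members belong to this set. In that set, 96 probes had a larger difference than *Dlx1*, 92 a larger difference than *Dlx6*, 353 than *Dlx2* and 926 than *Dlx5*.

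MGE-GFP+ cells differed more from the ES-GFP- cells. *Dlx2* was 7.89-fold higher in MGE-GFP+ than in ES-GFP- cells, the largest difference of the 6 members on any pair of arrays (log2 difference of 2.98). *Dlx5* was 5.91-fold higher (2.56), *Dlx1* 5.12-fold (2.36) and *Dlx6* 4.19-fold (2.07). The order of the members was thus not that of the comparison between the ES populations, where *Dlx6* and *Dlx1* led. Of the 5 members with a value in this comparison, 4 were at least 2-fold higher and 1, *Dlx3*, at least 2-fold lower, against 9.50% and 15.2% of all probes. The difference of *Dlx3* fell short of 2-fold with median intensities (-0.89), normexp background correction (-0.75) and the deposited log2 values (-0.71), and with a floor at the control probes it had no value. Among the 22627 probes above the control probes on both arrays, 10.4% were at least 2-fold higher and 6.83% lower, and 29 had a larger difference than *Dlx2*, 58 than *Dlx5*, 100 than *Dlx1* and 205 than *Dlx6*. The MGE-GFP+ and ES-GFP+ comparisons share the ES-GFP- array, so a low spot there would raise both.

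**Figure D2:**
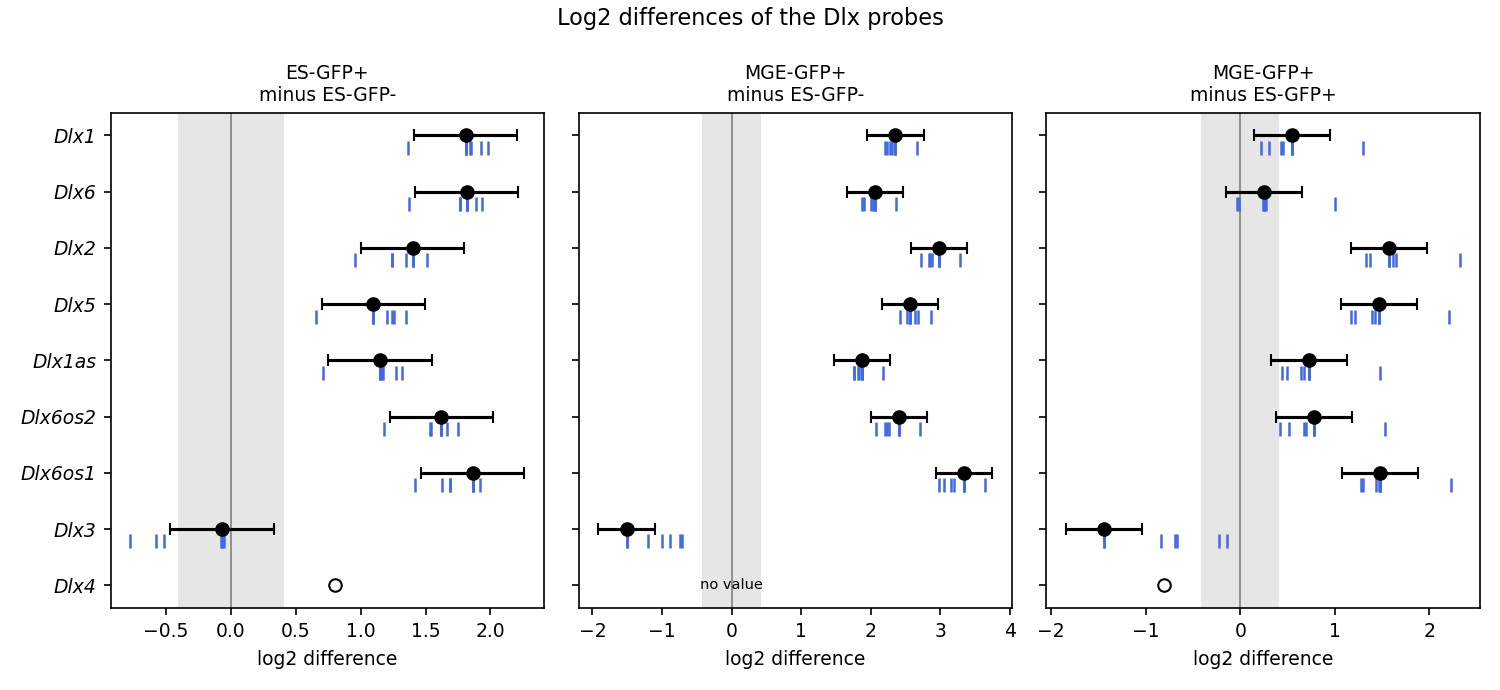
Log2 difference (x axis) of each *Dlx* probe and each noncoding transcript in the 3 comparisons, with bars of 2 SDs of repeat spots, a gray band of the same width around 0, and blue ticks for the value under each other way of scaling, background correction or filtering. An open circle is the bound for *Dlx4*, which had no value between MGE-GFP+ and ES-GFP- cells. *Dlx1*, *Dlx6*, *Dlx2* and *Dlx5* lie beyond the band in both comparisons with ES-GFP- cells, and between the GFP+ populations *Dlx2* (1.58) and *Dlx5* (1.47) lie far beyond it while *Dlx6* (0.25) lies inside.

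The GFP+ populations, which the study compared to ask how near the ES-derived cells come to the native MGE cells, split the family. *Dlx2* was 2.99-fold higher in MGE-GFP+ than in ES-GFP+ cells and *Dlx5* was 2.76-fold higher (log2 differences of 1.58 and 1.47). *Dlx1* was 1.46-fold higher, with a range of 1.11-fold to 1.93-fold at 2 SDs of repeat spots. *Dlx6* was 1.19-fold higher, with a range of 0.901-fold to 1.57-fold, so that the populations could not be put in order for *Dlx6*. At least 2-fold higher were 2 of 6 members and at least 2-fold lower 1 (*Dlx3*), against 5.01% and 34.7% of all probes. The median over the members, with the bound of *Dlx4* among them, was 0.40 against -0.47 over all probes. These medians became 1.15 and 0.29 under the 50th percentile and 0.10 and -0.01 in the deposited values. Among the 19354 probes above the control probes on both arrays the median was 0.08, and 7.29% were at least 2-fold higher and 6.64% lower. In that set 248 probes had a larger difference than *Dlx2* and 340 than *Dlx5*, but 4237 had a larger difference than *Dlx1* and 7607 than *Dlx6*.

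The scale of the arrays bears on each of these values. When the 50th percentile replaced the 75th, *Dlx2* and *Dlx5* fell short of 2-fold between the ES populations, leaving 2 of the 6 members, and between the GFP+ populations *Dlx1* passed it. The difference of *Dlx1* between the GFP+ populations was within 2 SDs of repeat spots when the arrays were quantile-normalized (0.30) and in the authors' log2 table (0.22). *Dlx3* was no longer 2-fold lower between the GFP+ populations under the 50th percentile (-0.69), quantile normalization (-0.23), median intensities (-0.83), normexp (-0.67) or the deposited values (-0.14), and with a floor at the control probes it had no value. Over all probes called in either direction, 84.5%, 38.4% and 12.6% were higher in ES-GFP+ than in ES-GFP- cells, in MGE-GFP+ than in ES-GFP- cells and in MGE-GFP+ than in ES-GFP+ cells. With the 50th percentile these shares became 59.6%, 61.3% and 55.8%, with quantile normalization 46.7%, 50.2% and 54.2%, and in the log2 values deposited with the arrays 55.1%, 44.9% and 43.4%. A shift between arrays moves every probe on them by the same amount and so drops out when the difference of one member is taken from that of another.

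By that measure the members of both forebrain linked pairs differed between the GFP+ populations, while contrasts within a paralogue group lay within the spread of repeat spots. Between MGE-GFP+ and ES-GFP+ cells the log2 difference of *Dlx2* exceeded that of *Dlx1*, its neighbor, by 1.03 (2.04-fold), where 2 SDs of repeat spots for such a contrast came to 0.57. The difference of *Dlx5* exceeded that of *Dlx6*, its neighbor, by 1.21 (2.32-fold). Both contrasts kept their direction in all alternatives, in which they ran from 1.02 to 1.19 and from 1.15 to 1.25. *Dlx5* and *Dlx2*, of the same paralogue group, gave a contrast of -0.11 in this comparison, with a range from -0.68 to 0.45. *Dlx6* and *Dlx1*, the other paralogues, gave -0.30, with a range from -0.86 to 0.27. A contrast within that spread does not show that the paralogues changed alike. Between the ES populations the contrasts within the linked pairs had the opposite sign, -0.41 for *Dlx2* less *Dlx1*, within 2 SDs, and -0.72 for *Dlx5* less *Dlx6*, beyond them. Between MGE-GFP+ and ES-GFP- cells they were 0.62, beyond 2 SDs, and 0.50, within them. The contrasts in the different comparisons share arrays, and each rests on 1 probe per gene.

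**Figure D3:**
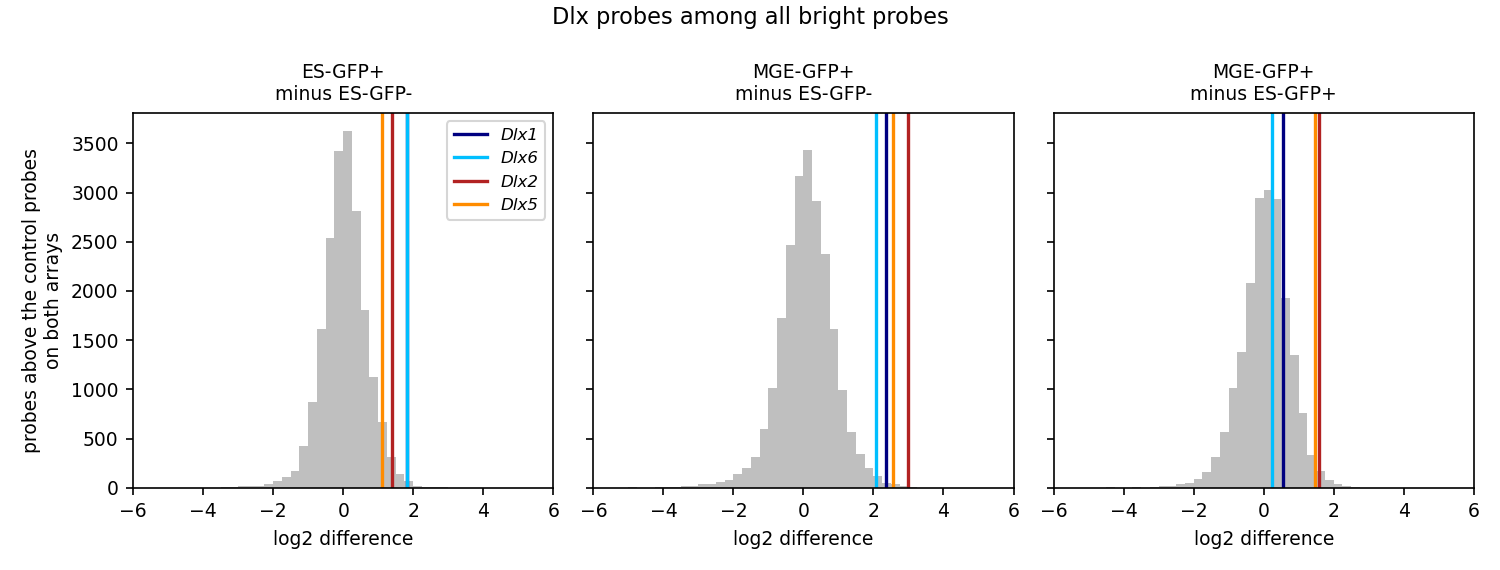
Number of probes (y axis) by log2 difference (x axis) in each comparison, for probes above the 95th percentile of the control probes on both arrays, with vertical lines at *Dlx1* (dark blue), *Dlx6* (light blue, on top of *Dlx1* in the left panel), *Dlx2* (dark red) and *Dlx5* (orange). All 4 lines stand in the right tail in the comparisons with ES-GFP- cells, while between the GFP+ populations *Dlx6* (0.25) and *Dlx1* (0.55) stand within the bulk of probes and *Dlx5* (1.47) and *Dlx2* (1.58) in the tail.

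Noncoding transcripts of the *Dlx* loci were measured by 3 further probes. *Dlx6os1* (NR_015388, also named Evf2) is a long noncoding RNA made from the ultraconserved enhancers of the *Dlx5*/*Dlx6* locus and is known to recruit Dlx proteins to them. Its probe had intensities of 371 in ES-GFP- cells, 1196 in ES-GFP+ cells and 2574 in MGE-GFP+ cells. It was 3.64-fold higher in ES-GFP+ than in ES-GFP- cells, 10.1-fold higher in MGE-GFP+ than in ES-GFP- cells and 2.79-fold higher in MGE-GFP+ than in ES-GFP+ cells. All 3 populations were thus in order for this transcript, and 12 of the 22627 probes above the controls on both arrays had a larger difference between MGE-GFP+ and ES-GFP- cells. *Dlx6os2* (NR_002839), a further transcript that overlaps *Dlx6*, had intensities of 1332, 3631 and 4825 and was 3.08-fold, 5.30-fold and 1.72-fold higher in the same comparisons. *Dlx1as* (NR_002854), which overlaps *Dlx1*, had intensities of 6235, 12248 and 15636 and was 2.22-fold, 3.67-fold and 1.66-fold higher. Under the 50th percentile the log2 difference of *Dlx1as* fell to 0.71 between the ES populations, and between the GFP+ populations *Dlx6os2* and *Dlx1as* passed 2-fold (1.53 and 1.48). The transcripts of a locus did not keep 1 ratio. Between MGE-GFP+ and ES-GFP+ cells the difference of *Dlx6os1* exceeded that of *Dlx6*, which it overlaps, by 1.23, beyond the 0.57 of repeat spots, and that of *Dlx6os2* by 0.70. Between the ES populations the difference of *Dlx1as* less that of *Dlx1* was -0.66, also beyond the spread of repeat spots, and the contrast was 0.18, within it, between the GFP+ populations. Whether the labeling kept the strand is not given in the sources used here, so signal from overlapping transcripts cannot be told apart by strand.

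Promoter sequence could be read for 2 of the 6 members, *Dlx1* and *Dlx2*, and for *Dlx6os1* and *Dlx6os2*. The windows are the 250 bases before the transcription start, from RefSeq on the GRCm38.p6 build, each given 5′ to 3′ on the strand of its gene, in lower case with any TAATTA in capitals. TAATTA holds the TAAT core that Dlx and other homeodomains bind. *Dlx1* and *Dlx2* are shown since these neighbors parted between the GFP+ populations. *Dlx6os1*, 10.1-fold higher in MGE-GFP+ than in ES-GFP- cells, is shown with the windows of its 2 listed starts.
Dlx1, chr2:71529195-71529444, plus strand: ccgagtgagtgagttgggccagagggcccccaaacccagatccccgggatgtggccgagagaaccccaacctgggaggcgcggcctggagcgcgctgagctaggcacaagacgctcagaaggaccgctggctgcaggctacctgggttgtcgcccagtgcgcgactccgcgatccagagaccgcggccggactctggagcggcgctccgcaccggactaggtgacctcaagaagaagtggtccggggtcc
Dlx2, chr2:71546755-71547004, minus strand: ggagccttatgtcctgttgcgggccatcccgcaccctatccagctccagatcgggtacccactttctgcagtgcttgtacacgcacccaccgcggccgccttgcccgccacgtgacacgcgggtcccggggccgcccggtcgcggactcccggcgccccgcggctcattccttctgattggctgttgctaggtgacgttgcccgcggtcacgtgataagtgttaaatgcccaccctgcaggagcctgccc
Dlx6os1, chr6:6869534-6869783, minus strand: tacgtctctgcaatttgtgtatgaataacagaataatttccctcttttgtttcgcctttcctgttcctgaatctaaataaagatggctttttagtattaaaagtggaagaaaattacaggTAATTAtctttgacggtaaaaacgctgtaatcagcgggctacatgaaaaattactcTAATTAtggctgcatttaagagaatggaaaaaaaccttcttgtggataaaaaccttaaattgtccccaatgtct
Dlx6os1, chr6:6861684-6861933, minus strand: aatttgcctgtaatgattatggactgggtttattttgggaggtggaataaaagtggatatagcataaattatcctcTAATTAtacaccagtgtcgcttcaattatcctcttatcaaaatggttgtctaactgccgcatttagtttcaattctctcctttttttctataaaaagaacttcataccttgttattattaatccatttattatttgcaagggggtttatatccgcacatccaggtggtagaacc

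The *Dlx1* and *Dlx2* windows were rich in G and C (68% and 66.4%) against a median of 52.4% over 32851 windows of this length. The *Dlx6os1* windows were AT-rich, at 33.2% and 34% G and C. TAATTA, which reads the same on both strands, was in both *Dlx6os1* windows, starting 130 and 74 bases before the start in the window at 6869534 and 174 bases before it in the other, and 4.84% of all windows held it. That share is over windows of every base composition. No share was taken over windows as AT-rich as those of *Dlx6os1*, so the matches cannot be called rare for such windows. It was in neither the *Dlx1* nor the *Dlx2* window and not in that of *Dlx6os2*. CAGCTG, an E-box that reads the same on both strands, was in none of the 5 windows read and in 13.0% of all. A match is a run of letters and not a measured binding site, and enhancers of the loci lie outside these windows.

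Factors that act before the *Dlx* genes in the ventral forebrain were measured by the probes of 7 genes. Of these, 2 were at least 2-fold higher and 3 at least 2-fold lower in ES-GFP+ than in ES-GFP- cells, 1 was higher and 1 lower in MGE-GFP+ than in ES-GFP- cells, and 2 were higher and 1 lower in MGE-GFP+ than in ES-GFP+ cells. Over all named genes, 24.0%, 9.90% and 5.48% were at least 2-fold higher and 6.40%, 17.2% and 32.2% at least 2-fold lower in these comparisons. The counts of 2 higher and 3 lower between the ES populations became 1 and 4 under the 50th percentile and 1 and 2 under quantile normalization, median intensities, the deposited values, normexp and the floor at the control probes. Under both the 50th percentile and quantile normalization, 2 were higher in MGE-GFP+ than in ES-GFP- cells. Under the same settings 3 were higher in MGE-GFP+ than in ES-GFP+ cells. *Nkx2-1*, which sets MGE identity, had intensities of 1444, 3673 and 8371, and its log2 differences of 1.52, 3.09 and 1.56 lay close to those of *Dlx2*. *Meis2*, a homeodomain factor of the lateral ganglionic eminence, had intensities of 9800, 3163 and 430 and log2 differences from ES-GFP- cells of -1.46 and -3.96. *Meis1*, its relative, had intensities of 6662, 2945 and 5267, just past 2-fold lower in ES-GFP+ than in ES-GFP- cells, and its log2 difference between MGE-GFP+ and ES-GFP- cells was 0.21. *Gsx1*, a progenitor factor of the ganglionic eminences, had a log2 difference of -1.37 between ES-GFP+ and ES-GFP- cells but was within the range of the control probes in both GFP+ populations, and *Gsx2*, which acts upstream of *Dlx2*, had one of 1.12 but stayed within the range of the control probes on all 3 arrays, and the sign turned under quantile normalization (-0.32).

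Genes known to need Dlx function in the basal forebrain were a list of 13. At least 2-fold higher in ES-GFP+ than in ES-GFP- cells were 9 of them, and 1 was lower, with a median log2 difference of 1.77, where 24.0% and 6.40% of all named genes were higher and lower. In MGE-GFP+ against ES-GFP- cells 8 were higher and 3 lower, against 9.90% and 17.2% of named genes, with a median of 1.90. Between the GFP+ populations 0 were higher and 2 lower, against 5.48% and 32.2%, with a median of -0.18. These values depended on the scale. Between the GFP+ populations 4 were higher and 1 lower under the 50th percentile (median 0.57), and 3 and 1 after quantile normalization. Between the ES populations 8 were higher and 3 lower under the 50th percentile (median 1.33), 8 and 2 after quantile normalization and 7 and 1 in the deposited values. With a floor at the control probes 10 genes had a value there, 7 higher and 1 lower. *Ackr3* and *Sp9*, among the 9, were within the range of the control probes on both ES arrays. *Gad1* and *Gad2* encode the enzymes of GABA synthesis. *Gad1* had intensities of 4071, 15760 and 10376 and *Gad2* had 6024, 17447 and 15656. Their log2 differences between MGE-GFP+ and ES-GFP+ cells were -0.23 and 0.22, both within 2 SDs of repeat spots, where *Dlx2* and *Dlx5* differed by 1.58 and 1.47. These too depended on the scale, running from -0.61 in the deposited values to 0.52 under the 50th percentile for *Gad1* and from -0.10 to 0.97 for *Gad2*. *Maf* (1.84 and 2.46 above ES-GFP- cells in ES-GFP+ and MGE-GFP+ cells), which acts in MGE-derived interneurons, was higher in both GFP+ populations. *Erbb4*, the neuregulin receptor of migrating interneurons, was also higher in both (2.24 and 1.94). *Npas1*, a factor of interneurons and pallidal neurons, was 2.98 higher in ES-GFP+ cells on the log2 scale but 0.35 higher in MGE-GFP+ cells, where its 2 probes were 2.19 apart. *Cxcr4*, the chemokine receptor of tangential migration, was at least 2-fold lower in both GFP+ populations, with intensities of 13271, 3572 and 2101 and log2 differences of -1.72 and -2.11. *Prox1* and *Sp8*, more used in the lateral and caudal eminences, had differences of -1.66 and -1.79 between MGE-GFP+ and ES-GFP- cells, where the 2 *Sp8* probes lay 1.87 apart and *Sp8* was within the range of the control probes in MGE-GFP+ cells. In ES-GFP+ cells they were -0.91 and -0.74, and -1.35 and -1.19 under the 50th percentile. *Lhx6* itself was 2.63 and 3.41 higher, but its 3 probes spread over 3.99 and 5.00, and the brightest was nearly flat.

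Genes that Dlx proteins are known to hold down were a list of 8. At least 2-fold higher and lower were 1 and 2 in ES-GFP+ against ES-GFP- cells, 3 and 3 in MGE-GFP+ against ES-GFP- cells, and 1 and 1 between the GFP+ populations, with medians of 0.22, -0.04 and 0.32. The shares of all named genes were 24.0% and 6.40%, 9.90% and 17.2%, and 5.48% and 32.2% in these comparisons. Under the 50th percentile 5 were higher and 0 lower between the GFP+ populations, with a median of 1.07, and the median between the ES populations was -0.22. *Olig2*, a factor of oligodendrocyte progenitors, had intensities of 4117, 478 and 623 and log2 differences of -2.93 and -2.17 from ES-GFP- cells in the GFP+ populations. *Hes5*, a Notch effector of progenitors, had 12189, 3032 and 2923, with differences of -1.83 and -1.51. Among the cytoskeletal genes, which Dlx1 and Dlx2 restrain in migrating interneurons, *Mapt* had differences of 1.01 and 1.33 from ES-GFP- cells in ES-GFP+ and MGE-GFP+ cells, the first of which was 0.57 under the 50th percentile. *Map2* had differences of 0.68, short of 2-fold, and 1.88, and its 2 probes lay 1.25 and 2.63 apart in these. *Gap43* (0.17 and 0.13) and *Pak3* (0.003 and -0.21), genes of neurite growth, were within 2 SDs of repeat spots. *Nrp2* had differences of 0.77 and 1.48 from ES-GFP- cells in ES-GFP+ and MGE-GFP+ cells. *Otp* had 0.27 and -1.39, and -1.66 between the GFP+ populations, but was within the range of the control probes on all 3 arrays. Of 6 genes for proteins that bind or antagonize Dlx proteins, 0 differed by 2-fold between the ES populations (1 was lower under quantile normalization), and *Grip1* was 1.25 higher in MGE-GFP+ than in ES-GFP- cells. *Msx1*, an antagonist, was within the range of the control probes on all 3 arrays.

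**Figure D4:**
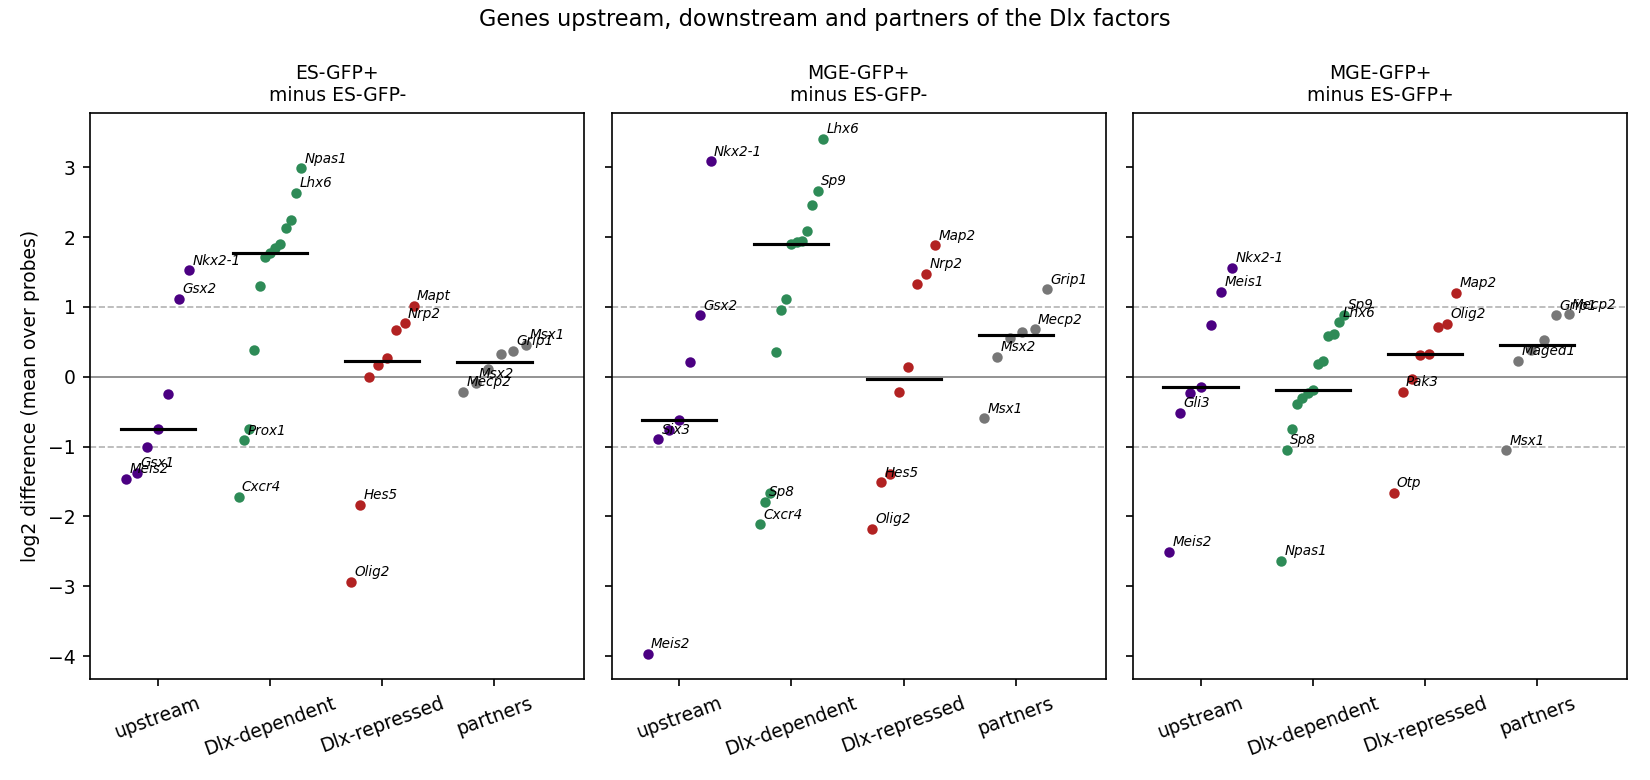
Log2 difference (y axis, mean over the probes of a gene) of genes that act upstream of the *Dlx* genes, genes that need Dlx function, genes that Dlx proteins repress and partner proteins, with a point per gene, a black bar at the median of each list and dashed lines at 2-fold. The list of genes that need Dlx function has medians of 1.77 and 1.90 in the comparisons with ES-GFP- cells (1.33 and 2.20 under the 50th percentile). Between the GFP+ populations its median is -0.18 (0.57 under the 50th percentile). In this list *Cxcr4* is lowest in the first panels and *Npas1* lowest in the last.

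The sorted cells were set against markers of the cells in which *Dlx* genes are used. All 4 MGE markers (*Lhx6*, *Lhx8*, *Nkx2-1* and *Sox6*) were well above background and above the control probes on all 3 arrays, and the sum of their intensities, in units of the 75th percentile, was 52.5 in ES-GFP- cells, 75.5 in ES-GFP+ cells and 129.5 in MGE-GFP+ cells. *Lhx6* was the brightest on each array, through a probe that was nearly flat, and without it the sums were 3.45, 15.3 and 52.3. All 4 were at least 2-fold higher in both GFP+ populations than in ES-GFP- cells, and 3 of 4 in MGE-GFP+ than in ES-GFP+ cells, where 24.0%, 9.90% and 5.48% of named genes were higher. Of 8 genes of radial glia and dividing progenitors, 7 were at least 2-fold lower in ES-GFP+ and 7 in MGE-GFP+ than in ES-GFP- cells, against 6.40% and 17.2% of all named genes, and their summed intensity was 63.4 in ES-GFP- cells (brightest *Vim*), 12.4 in ES-GFP+ cells and 15.7 in MGE-GFP+ cells (brightest *Hes5* in both). In MGE-GFP+ against ES-GFP+ cells 2 of the 8 were higher and 2 lower (5.48% and 32.2% of all named genes). These were *Mki67* (1.41) and *Sox2* (1.04), and *Hes1* (-1.32) and *Slc1a3* (-1.95). *Hes1* and *Slc1a3* were within the range of the control probes in both GFP+ populations, and *Mki67* was so in ES-GFP+ cells. Under the 50th percentile 3 of the 8 were higher and 1 lower, and under quantile normalization 1 and 0. None of the 8 genes was without the background call, and 8, 5 and 6 were above the control probes in ES-GFP-, ES-GFP+ and MGE-GFP+ cells. In cell populations, more cells that use a gene and more RNA per cell cannot be told apart, and this holds for every *Dlx* difference between the sorted fractions. The part of progenitor content in the *Dlx* differences was not tested.

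Oligodendrocyte genes moved with the GFP- fraction as well. All 4 (*Olig1*, *Olig2*, *Sox10* and *Pdgfra*) were well above background in ES-GFP- cells, 3 were at least 2-fold lower in ES-GFP+ cells and 4 in MGE-GFP+ cells (6.40% and 17.2% of all named genes), with summed intensities of 7.64, 1.07 and 1.15, *Olig2* brightest on each array. Of 9 genes of the branchial arch mesenchyme, where *Dlx3*, *Dlx5* and *Dlx6* are also used, 5 were well above background in ES-GFP- cells, 8 in ES-GFP+ cells and 1 in MGE-GFP+ cells. Over all mouse probes 80.3%, 90.6% and 77.1% had that call in the same order. Above the control probes was 1, *Twist1*, in ES-GFP- cells and 0 in either GFP+ population. *Alx1*, *Gsc*, *Hand2* and *Prrx2* lacked the background call in both ES-GFP- and MGE-GFP+ cells. The summed intensities of the 9 were 0.823, 0.676 and 0.160. Of 8 surface ectoderm genes, 5, 4 and 2 were above the control probes, and their summed intensities were 81.7, 68.5 and 75.1, or 14.2, 5.87 and 0.718 without *Trp63*. Between the ES populations 2 of them, *Krt5* and *Krt8*, were at least 2-fold higher in ES-GFP+ cells, both within the range of the control probes. At least 2-fold lower was 1, *Gata3*, and the median log2 difference was 0.26. Of all named genes 24.0% were higher and 6.40% lower in this comparison, so the count of higher genes was near the share over all genes. Under the 50th percentile 1 was higher and 2 lower, with a median of -0.18. *Epcam*, above the control probes on both ES arrays, was 1.41-fold higher in ES-GFP+ than in ES-GFP- cells at the 75th percentile. *Gata3* had intensities of 9762, 2589 and 4.02 and *Krt18* had 1428, 780 and 95.6. *Trp63*, the brightest of the list, differed by less than 2 SDs of repeat spots in each comparison at the 75th percentile. On each array 1 of its 2 probes was well above background, and that probe alone gave these differences. *Dlx3*, itself a gene of ectoderm, had its lowest value in the MGE-GFP+ cells, but was within the range of the control probes on all 3 arrays. Its log2 difference between the GFP+ populations was -0.14 in the deposited values. Of 6 pallial genes 3 and 5, and of 4 pluripotency genes 2 and 3, were at least 2-fold lower in ES-GFP+ and in MGE-GFP+ cells than in ES-GFP- cells, beside the same shares of all named genes, with summed intensities of 2.29, 0.849 and 2.02 for the pallial genes and of 304, 310 and 391 for the pluripotency genes, nearly all of the latter from a flat *Nanog* probe. Over the alternatives the lower pallial genes numbered from 1 to 5 in both comparisons, and the pluripotency genes 1 to 2 and 2 to 3. Of the pallial genes 1 was at least 2-fold higher in each of these comparisons. It was *Emx1* in ES-GFP+ cells (3.14-fold, with intensities of 76.6 and 213 in ES-GFP- and ES-GFP+ cells, within the range of the control probes on both arrays) and *Tbr1*, a factor of early cortical neurons, in MGE-GFP+ cells (4.97-fold). In the deposited values and with a floor at the control probes, 0 pallial genes were at least 2-fold higher in ES-GFP+ than in ES-GFP- cells. *Tbr1* had intensities of 202, 105 and 1020 and was above the control probes in MGE-GFP+ cells alone. Of 3 hemoglobin genes, *Hba-a1* (6004 against 538 and 646) and *Hbb-y* (5634 against 21.3 and 42.9) were bright in MGE-GFP+ cells, while *Hbb-bh1*, at 61.1, was within the range of the control probes there. The summed intensity of 9 vascular and blood genes was 24.6 against 3.85 and 4.30. The part of any of these cells in the *Dlx* differences was not tested.

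The genes whose 3 log2 values, less their mean, lay nearest to those of each forebrain member were sought among 14658 genes with every probe well above background on all 3 arrays. For *Dlx1*, *BC030500* and *Enc1* were among the 3 nearest, at root mean square distances of 0.020 and 0.023, and *Dlx6* came at rank 26. For *Dlx2* the 3 nearest were *Adamts5*, *Nkx2-1* and *Bcl11a* (0.050, 0.054 and 0.056), and *Dlx5* came at rank 14. For *Dlx5* they included *Cldn34c1* and *Tes* (0.0083 and 0.015), with *Dlx2* at rank 41. For *Dlx6* they included *Brinp3* and *Ackr3* (0.027 and 0.036), with *Dlx1* at rank 32. In each case the paralogue was the nearest other family member and the linked neighbor was farther off. *Dlx5* stood at rank 289 and *Dlx2* at rank 335 from *Dlx1*, and *Dlx1* stood at rank 150 and *Dlx6* at rank 335 from *Dlx2*. With 3 arrays these distances describe a shape of 3 points and no more.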

How the data were processed

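The authors amplified total RNA of each sorted population, labeled it with a single dye, hybridized it to Agilent whole mouse genome arrays and extracted the scans with Feature Extraction (version 10.7.3.1 in the file headers). The deposited scanner files give spot intensity on a linear scale, background-subtracted and not scaled between arrays. Each array had 62976 spots, 59305 of them for mouse transcripts. The labels and the study's methods differ on the amplification kit and the array format. A log2 table that the authors deposited beside them lay within 0.212 of quantile-normalized log2 median intensities without background subtraction. Its values were used as an alternative.

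For the values given here, spots marked as outliers by the software were dropped (137 for ES-GFP-, 135 for ES-GFP+ and 98 for MGE-GFP+ cells), no spot was saturated, log2 intensity less the 75th percentile of the array was taken, and repeat spots were averaged. The background call of a probe needed it on a fraction of 0.5 or more of the spots kept. Probes lacking it were set no lower than the lowest called value of the array, and folds against them are bounds. A probe or gene was counted when it differed by at least 2-fold with the brighter side well above background. The repeat-spot SD came from probes with over 4 spots. Gene differences are means over probes, and 26582 of 55681 probes were named through RefSeq accessions.

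Members, gene lists, named genes and settings were chosen with earlier results of these data known. Named were every *Dlx* probe and probe of a noncoding transcript of the loci, and the 3 nearest genes by pattern. From other lists, some of the genes that differed by 2-fold and some of those not above background were named, and others were not. A limit of 6 genes with a 2-fold difference per list was not kept for the genes that need Dlx function. Genes of the lists given by name without a 2-fold difference were chosen after their values were seen. Some genes are not reported here and were left out of the list counts. Alternatives were the 50th percentile, quantile normalization, median intensities without background subtraction, normexp (offset 50), the deposited log2 values, no filter, a floor at the 95th percentile of the control probes, and outlier spots kept. Python 3.11.15 (numpy 2.4.6, pandas 2.3.3) and limma 3.58.1 in R 4.3.3 were used, and the scripts were tested on simulated data.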

Additional observations from a re-analysis of the deposited data

How the results depend on the processing

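Of the counts of *Dlx* members at least 2-fold higher or lower and the contrasts within linked pairs, 52 values under an alternative stayed within 1.5 times or within the repeat-spot spread of the value given, and 12 did not. The 52 include the contrasts under the 50th percentile, no filter, the floor at the control probes and outlier spots kept, which could not move them. With arrays scaled to their 50th percentile, 2 members in place of 4 were at least 2-fold higher in ES-GFP+ than in ES-GFP- cells, since this scaling takes a constant from every difference on those arrays. The count higher in MGE-GFP+ than in ES-GFP+ cells was 3 in place of 2 under that scaling. The 1 member lower in MGE-GFP+ than in ES-GFP+ cells became 0 under the 50th percentile, quantile normalization, median intensities without background subtraction, the deposited log2 values, normexp and the floor at the control probes, and 2 with no filter on dim probes. The 1 member lower in MGE-GFP+ than in ES-GFP- cells became 0 with median intensities, the deposited values, normexp and that floor. The member was *Dlx3*, for which the floor leaves no value, and for the other settings the cause was not tested. Differences of single probes stayed within the spread in 141 values and moved by more in 60, with no change of sign among called differences. Between the GFP+ populations *Dlx3* ran from -1.44 to -0.14, *Dlx1* from 0.22 to 1.30, *Dlx5* from 1.18 to 2.21, *Dlx6* from -0.03 to 1.00 and *Dlx2* from 1.33 to 2.33. The bound for *Dlx4* between the ES populations fell from a log2 value of 0.80 to 0.02 in the deposited values. Its bound between the GFP+ populations moved from -0.81 to -0.05 there and to -0.06 under the 50th percentile. A planned normexp correction on mean spot intensities was not run, since the files hold median intensities, and the same correction on those was added after the data were seen. No paired analysis was possible because each population has 1 array. Signal near the control probes limits what can be said of *Dlx3* and *Dlx4*.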
